A study of Homo sapiens with 16 samples.

Results

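The replication-dependent histone genes lie in clusters, among them HIST1 on chromosome 6 and HIST2 on chromosome 1. The open chromatin of both clusters was followed here after a treatment meant to degrade a fusion oncoprotein. Members were all regions of the count tables that overlapped fixed windows on hg19: 6:26015000-26290000, called the HIST1 large window, 6:27770000-27870000, called the HIST1 small window, and 1:149780000-149870000, called the HIST2 window. The rule uses positions alone and no measured value, though the windows were chosen with earlier results of these data known. In experiment 6086 the windows held 40 of 56949 regions, 25 in the HIST1 large window, 8 in the HIST1 small window and 7 in the HIST2 window. In experiment 6211 they held 22 of 40844 regions, 14, 4 and 4 in the same order. All members passed the filter on low counts in both tables, and none crossed a window edge.

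Open chromatin was profiled by ATAC-seq, where a transposase cuts and tags accessible DNA, in Rh30, a human alveolar rhabdomyosarcoma cell line driven by the fusion transcription factor PAX3-FOXO1. In every group the fusion carried an FKBP tag, and 500 nM dTAG47, a molecule that brings FKBP-tagged proteins to a ubiquitin ligase, was used to degrade it. Experiment 6211 had groups with DMSO, the solvent, and with 0.5, 1 and 2 h of dTAG47, and experiment 6086 had groups with its own DMSO and with 2, 4 and 24 h of dTAG47. Each of the 8 groups had 2 libraries, called A and B after the count columns, so there were 16 libraries in all. The labels give neither the duration of DMSO nor whether the tagged cells were 1 clone, and neither untagged cells nor the fusion's own level were analysed here. Loss of the fusion and other effects of dTAG47 therefore cannot be told apart. Libraries held 18038062 to 31308682 reads in regions in 6086 and 9934147 to 18275976 in 6211. Windows around MYOD1 and MYOG, muscle regulators, held 4 regions each in 6086. The highest reached 94.0 and 85.0 CPM in DMSO, the 98.9th and 98.4th percentile of the table, and the lowest 5.87 and 7.52 CPM. Muscle identity itself was not tested. CPM is the read count of a region as a share of its library's reads in regions, scaled by TMM, in the usual counts-per-1e6 unit.

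Replication-dependent histone genes encode the bulk of the core histones H2A, H2B, H3 and H4 and the linker histone H1. They are transcribed mainly in S phase, when new DNA must be packaged, from clusters of intronless genes whose transcripts end in a stem-loop rather than a poly(A) tail. NPAT, a coactivator, gathers at these clusters in histone locus bodies, and the stem-loop binding protein SLBP acts on their transcripts. In RefSeq's gene order (GRCh38.p14, used here for names only) the 3 runs of histone genes that correspond to the windows hold 59 protein-coding histone genes, 32, 16 and 11 in the order of the windows. By class they are 6 H1, 13 H2A, 14 H2B, 13 H3 and 13 H4 genes. The region coordinates are on hg19 and no annotation of that build was used here, so no region was assigned to a gene.

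Promoter sequences of these genes show motifs that the histone classes share and those that set them apart. The following 5 stretches, from RefSeq on GRCh38.p14 and ending just before the transcription start, were chosen to give 1 gene of each histone class. Capitals mark 3 motifs on either strand: TATAAA is the TATA box and reads TTTATA on the other strand. CCAAT is the box bound by NF-Y and reads ATTGG there. ATTTGCAT is the octamer bound by OCT1 and reads ATGCAAAT there.
H2AC6, chr6:26123972-26124171, plus strand: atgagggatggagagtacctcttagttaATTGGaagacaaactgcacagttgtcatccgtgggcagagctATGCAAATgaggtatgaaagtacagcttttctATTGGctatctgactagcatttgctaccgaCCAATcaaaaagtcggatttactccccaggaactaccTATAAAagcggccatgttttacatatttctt
H2BC21, chr1:149886683-149886832, minus strand: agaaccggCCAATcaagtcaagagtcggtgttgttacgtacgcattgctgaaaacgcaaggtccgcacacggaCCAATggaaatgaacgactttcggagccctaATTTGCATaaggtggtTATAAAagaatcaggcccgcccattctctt
H3C2, chr6:26032100-26032249, minus strand: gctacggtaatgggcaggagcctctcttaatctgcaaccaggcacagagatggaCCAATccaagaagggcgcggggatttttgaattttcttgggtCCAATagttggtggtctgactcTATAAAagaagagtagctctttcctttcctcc
H1-4, chr6:26156179-26156328, plus strand: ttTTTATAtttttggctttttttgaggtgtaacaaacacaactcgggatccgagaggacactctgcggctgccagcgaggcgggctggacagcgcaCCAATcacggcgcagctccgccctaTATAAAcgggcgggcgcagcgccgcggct
H4C2, chr6:26027284-26027433, minus strand: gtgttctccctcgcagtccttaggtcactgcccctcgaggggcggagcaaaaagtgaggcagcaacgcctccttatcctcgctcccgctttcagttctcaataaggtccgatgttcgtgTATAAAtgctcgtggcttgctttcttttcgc
The H2A and H2B promoters shown carry all 3 motifs, the H3 and H1 promoters TATAAA and CCAAT, and the H4 promoter TATAAA alone. Of the 59 genes, 55 had a promoter in the RefSeq table, and motifs were counted in the 250 bases before the start on both strands. TATAAA was found in 36 of 55 (65.5%) against 11.1% of 27305 promoters of all genes. CCAAT was found in 46 of 55 (83.6%) against 33.0%, with all 13 H2A, 14 H2B, 11 H3 and 6 H1 promoters and 2 of 11 H4 promoters holding it. ATTTGCAT was found in 21 of 55 (38.2%) against 1.66%, and 9 of 13 H2A and 11 of 14 H2B promoters accounted for 20 of the 21. These are matches of letters and not measured binding sites.

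Members were of ordinary level in untreated cells. In 6086 their median DMSO level was 15.1 CPM, from 0.892 to 65.2 CPM, against 10.4 CPM over the table, and 22 of 40 lay above the table's median. They were wider than most regions, with a median of 491.5 bp against 320 bp. Per kilobase of region the order turned, with 29.1 CPM per kb for the members against 33.6 over the table, and 12 of 40 above the table's median. In 6211, where 21 of the 22 members were 401 bp wide, the median was 18.3 CPM against 18.5 over the table, with a range of 11.5 to 34.1 CPM and 10 of 22 above the table's median. Because widths were set differently, levels are not comparable between the tables. The HIST2 cluster holds near-identical gene copies, and the sources used here do not say how reads mapping to more than 1 place were treated. Its regions lay at both ends of the window, with 70.9 kb free of regions in 6086 between positions 149785343 and 149856269. The longest such gap was 60.7 kb in the HIST1 large window, between 26224652 and 26285384, and 33.0 kb in the HIST1 small window, between 27806873 and 27839902. Each of the 22 members of 6211 overlapped a member of 6086, and 19 members of 6086 overlapped none of 6211. Those 19 were narrow, with a median width of 194 bp against 633 bp for the other 21.

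**Figure D1:**
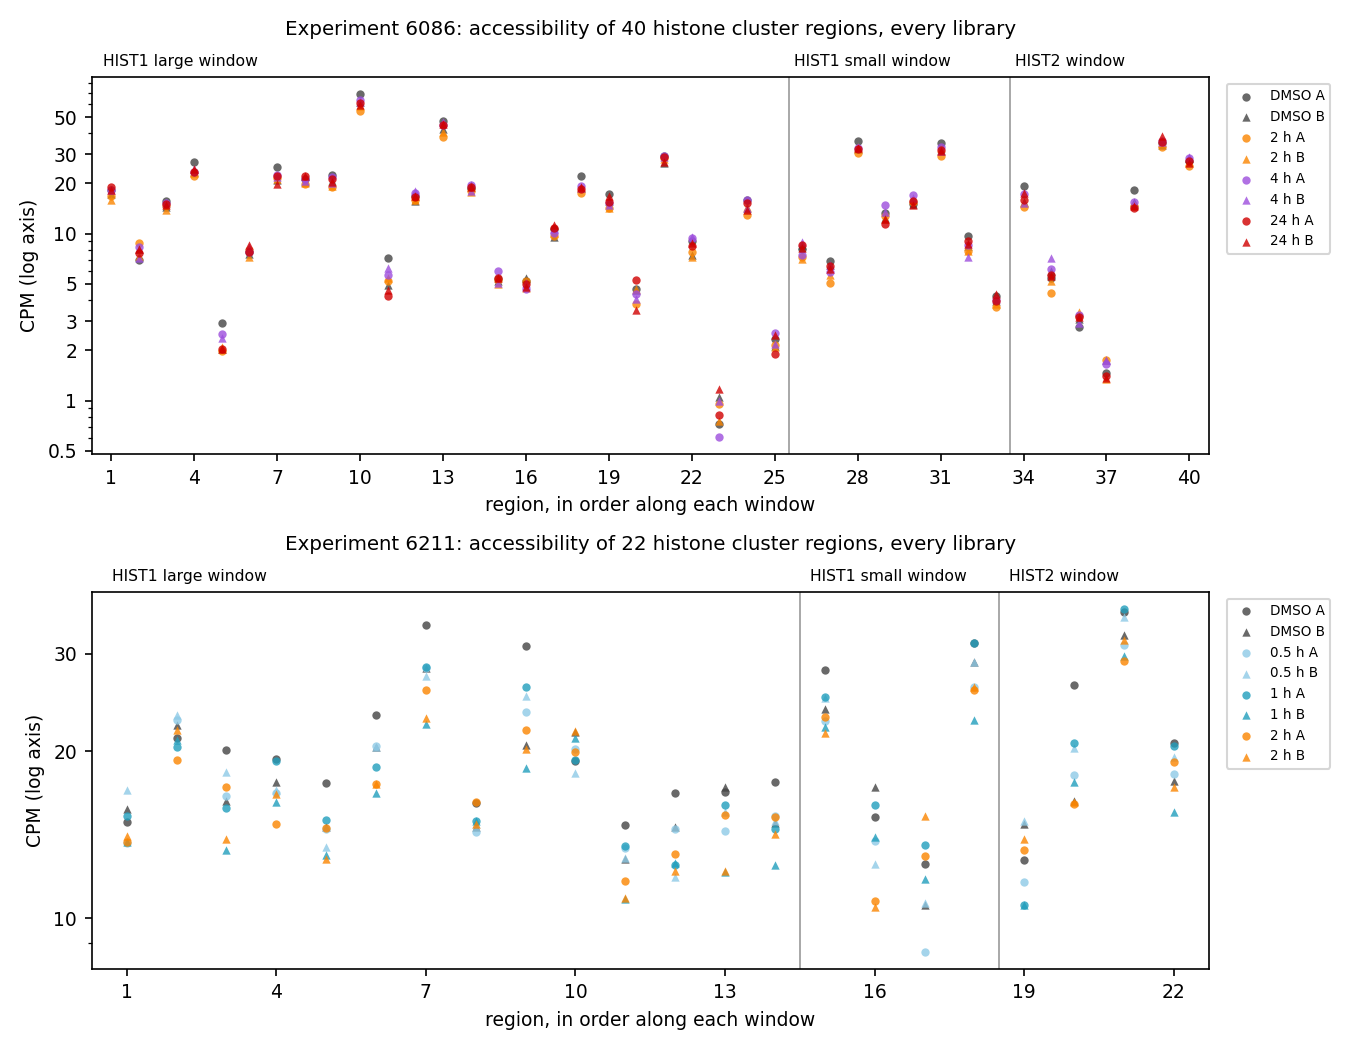
CPM on a log axis of every member in every library, 40 regions of experiment 6086 (top) and 22 of experiment 6211 (bottom), numbered along each window; colours give the group, circles library A and triangles library B. Levels span 0.892 to 65.2 CPM in DMSO in 6086, and libraries of different groups lie close together at most regions.

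By CPM of the whole region the highest members of 6086 were 6:26123152-26124660 (65.2 CPM in DMSO, the 96.7th percentile), 6:26157302-26158784 (44.9 CPM) and 1:149857789-149858764 (34.6 CPM). All 3 were wide, and per kilobase they stood at 43.2, 30.3 and 35.5 CPM per kb. The highest member per kilobase was 6:26172043-26172376, at 57.3 CPM per kb, the 91.4th percentile, with log2 changes of -0.10 at 2 h (edgeR adjusted p = 0.60) and -0.01 at 24 h (adjusted p = 0.94); it was singled out after its values were seen. In 6211 the highest by CPM were 1:149858111-149858511 (34.1 CPM), 6:26124019-26124419 (31.0 CPM) and 6:27860789-27861189 (30.2 CPM). Summed over all members, 0.0634% ± 0.0037 of reads in regions fell in the clusters in DMSO of 6086 and 0.0437% ± 0.0038 in DMSO of 6211 (SD, n = 2). The summed level in 6086 was 667 and 613 CPM in DMSO libraries A and B, 581 and 599 at 2 h, 642 and 631 at 4 h and 624 and 624 at 24 h. Both 2 h libraries lay below both DMSO libraries, while the 4 h and 24 h libraries lay between them. In 6211 the sum was 465 and 413 CPM in DMSO, 399 and 417 at 0.5 h, 423 and 363 at 1 h and 386 and 378 at 2 h. Here, too, only the 2 h pair lay below both DMSO libraries. With 2 libraries a group, an exact permutation test of a sum cannot fall under 0.05, so none was made. In bulk libraries, fewer cells with an open region and less opening per cell cannot be told apart.

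The share of regions called across the table was largest at 24 h. Of the 40 members, 1 fell and 0 rose, while 32.2% of the 56945 regions tested were called (18.6% lower, 13.6% higher) by edgeR's quasi-likelihood test at a Benjamini-Hochberg adjusted p under 0.05. Member log2 changes ran from -0.42 to 0.13, with a median of -0.01 against -0.00 over all regions. A change of more than 1.2-fold in either direction was seen in 1 of 40 members and in 32.5% of all regions. The standard error was similar, with a median of 0.09 for members and 0.10 for all regions. For 20 of the 40 members the 95% interval of the change lay wholly within 1.2-fold (25.2% of all regions), and for all 40 it lay within 2-fold. An unadjusted p under 0.05 was found for 2 members (5% against 40.1% of all regions), and DESeq2 called 0 members (19.9% of all regions). The authors' deposited table called the same number of regions as that DESeq2 fit, 11323, so it is no second test. It called 0 of the 40, with a lowest adjusted p of 0.14.

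The member that fell was 6:26126436-26126579, a narrow region of 144 bp in the HIST1 large window. Its level was 7.17 and 4.93 CPM in DMSO, 5.23 and 5.40 at 2 h, 5.68 and 6.23 at 4 h, and 4.21 and 4.59 at 24 h. Both 24 h libraries lay below both DMSO libraries, but the DMSO libraries lay further apart than DMSO library B and the 24 h libraries did. The log2 change at 24 h was -0.42 (SE 0.15, edgeR adjusted p = 0.025, 95% interval -0.71 to -0.12). With DMSO library A left out it was -0.16 (edgeR adjusted p = 0.52), with 24 h library A left out the adjusted p was 0.14, and DESeq2 gave 0.14. The count of called members at 24 h depended on which library was left out. It is not given, since the share of all regions called in those fits is not at hand here.

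Each window held small changes in both directions at 24 h. In the HIST1 large window 14 of 25 members were below DMSO, and the highest change, 0.13 (edgeR adjusted p = 0.33), was at 6:26197217-26197673. In the HIST1 small window 6 of 8 were below DMSO, between -0.11 at 6:27839902-27840268 (edgeR adjusted p = 0.42) and 0.03 at 6:27863368-27863469 (edgeR adjusted p = 0.89). In the HIST2 window 5 of 7 were below DMSO, between -0.23 at 1:149856539-149856705 (edgeR adjusted p = 0.49) and 0.11 at 1:149856269-149856438 (edgeR adjusted p = 0.67), both of which had under 4 CPM. The abundant HIST2 region 1:149857789-149858764 stood at 35.1 and 34.1 CPM in DMSO, 33.2 and 35.2 at 2 h, 36.1 and 35.3 at 4 h and 35.5 and 38.6 at 24 h. Its 24 h change was 0.10 (95% interval -0.03 to 0.23, edgeR adjusted p = 0.25).

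**Figure D2:**
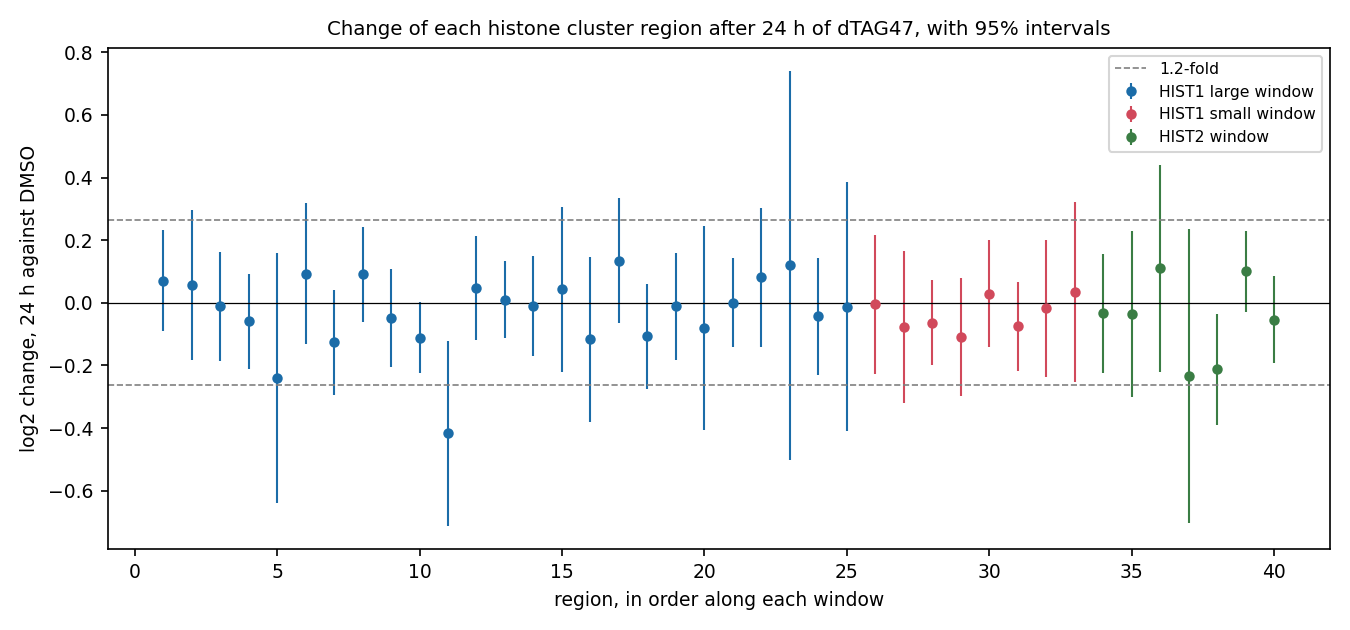
Log2 change at 24 h against DMSO in experiment 6086 for the 40 members, numbered along each window, with 95% intervals (bars) and dashed lines at 1.2-fold. Of the 40 intervals 20 lie between the dashed lines, and the lowest point, at -0.42, is the member that fell.

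At 2 h in the same experiment the members' median absolute log2 change was 0.11, against 0.09 over all regions. At 4 h it was 0.06 against 0.10. At 2 h in 6086, 1 of 40 members fell and 0 rose, against 5.22% of regions called (4.25% lower, 0.976% higher), and 35 of 40 changes were negative against 49.5% of all regions. The median change was -0.10, between -0.30 and 0.17, and 6 members had an unadjusted p under 0.05 (15% against 16.4% of all regions). At 4 h 0 of 40 were called (7.19% of all regions, 5.44% lower and 1.74% higher), 18 were negative and the median was 0.02, with 0 members at an unadjusted p under 0.05 (17.7% of all regions). The 2 h level lay below both DMSO libraries in both libraries for 17 members and above in 2 (22.7% and 21.4% of all regions). At 4 h these counts were 3 and 8 (22.2% and 22.4%), and at 24 h 8 and 5 (32.4% and 29.5%). The 2 h median was -0.05 when DMSO library A was left out and -0.17 when DMSO library B was. The count of called members at 2 h also depended on the library left out. DESeq2 called 0 members at 2 h (2.45% of all regions) and 0 at 4 h (3.69%).

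The member called at 2 h was 6:26123152-26124660, the widest member at 1509 bp and the one with the highest CPM. Its level was 68.7 and 61.6 CPM in DMSO, 54.2 and 58.2 at 2 h, 63.2 and 61.4 at 4 h and 61.1 and 59.1 at 24 h. The 2 h libraries lay below both DMSO libraries and below the 4 h and 24 h ones. The log2 change was -0.21 at 2 h (SE 0.06, edgeR adjusted p = 0.025), -0.06 at 4 h (adjusted p = 0.67) and -0.11 at 24 h (adjusted p = 0.13). The 2 h call was lost in DESeq2 (adjusted p = 0.21) and in edgeR when DMSO library A (0.32) or 2 h library A (0.39) was left out. The region was called at 24 h when DMSO library B was left out (adjusted p = 0.020).

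Tested directly, 24 h against 2 h in 6086 gave 0 lower and 1 higher member, where 30.4% of all regions were called (17.6% lower, 12.8% higher). The member that rose was 6:26157302-26158784, at 38.1 and 40.9 CPM at 2 h and 44.7 and 45.3 at 24 h, with 47.3 and 42.4 in DMSO and 44.6 and 46.6 at 4 h. Its change between the times was 0.19 (SE 0.06, edgeR adjusted p = 0.017), while against DMSO it was -0.18 at 2 h (adjusted p = 0.11) and 0.01 at 24 h (adjusted p = 0.92). DESeq2 did not call it (adjusted p = 0.11) or any other member (9694 of 56949 regions, or 17%), and without 2 h library A or either 24 h library the adjusted p was 0.23, 0.061 and 0.092. Over the 40 members the median of this step was 0.08 against 0.01 over all regions, and 20 members were higher in both 24 h libraries than in both 2 h libraries, 3 lower (32.5% and 31.5% of all regions).

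In experiment 6211 the members' median change was below 0 at each of the 3 times, and 1 member passed the threshold. At 0.5 h 0 of 22 were called (0.00735% of 40844 regions, all lower; 0.0% higher), 20 changes were negative and the median was -0.11. At 1 h 0 of 22 were called (2.69% of all regions, 2.47% lower and 0.22% higher), with 21 negative, a median of -0.17 and 7 members at an unadjusted p under 0.05 (31.8% against 16.4% of all regions). At 2 h 1 of 22 fell and 0 rose (6.89% of all regions, 4.92% lower and 1.97% higher), with 19 negative and a median of -0.22. Over all regions, medians lay between -0.00 and 0.01 in these comparisons and 48.2% to 50.4% of changes were negative. Members with both treated libraries below both DMSO libraries numbered 6 at 0.5 h, 7 at 1 h and 13 at 2 h, and those above 1, 0 and 1 (19.2%, 21.3% and 23.8% of all regions below, 16.9%, 20.9% and 25.0% above). The step from 0.5 to 2 h gave 0 called members (1.42% of all regions, 1.28% lower and 0.147% higher) and a median of -0.11, with 9 members lower and 1 higher in both 2 h libraries (22.4% and 22.8% of all regions). DESeq2 called 0 members at 0.5 h (0.0049% of all regions), 1 h (0.896%), 2 h (3.28%) and in the step (0.592%). The count of called members at 1 h depended on the library left out, as with DMSO library B or 1 h library A. An unadjusted p under 0.05 was found for 1 member at 0.5 h, 5 at 2 h and 2 in the step (4.55%, 22.7% and 9.09%, against 6.67%, 20.3% and 12.2% of all regions).

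The region that fell at 2 h was 6:27839938-27840338 in the HIST1 small window. It had 15.2 and 17.2 CPM in DMSO, 13.8 and 12.5 at 0.5 h, 15.98 and 14.0 at 1 h and 10.7 and 10.5 at 2 h. Both 2 h libraries were the lowest of the 8. The log2 change at 2 h was -0.61 (SE 0.14, edgeR adjusted p = 0.0075). It was not past the threshold when 2 h library B was left out, or in the authors' deposited table (adjusted p = 0.053). The count of called members at 2 h depended on the library left out here too. The overlapping region of the other experiment, 6:27839902-27840268, had 13.3 and 12.4 CPM in DMSO and 12.8 and 12.2 at 2 h, a change of -0.03 (edgeR adjusted p = 0.92). The difference between the experiments was 0.59 (6086 minus 6211, 95% interval 0.24 to 0.93), which was not past the threshold over all matched regions (edgeR adjusted p = 0.90).

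Of the 6211 members with the highest CPM, 6:26124019-26124419 had 33.8 and 28.2 CPM in DMSO, 28.2 and 27.3 at 0.5 h, 28.4 and 22.4 at 1 h and 25.8 and 23.0 at 2 h. It lies inside the region called at 2 h in 6086. Its 2 h change was -0.35 (edgeR adjusted p = 0.092), and it passed the threshold at 1 h and 2 h when DMSO library B was left out (adjusted p = 0.037 and 0.020). The HIST2 region 1:149858111-149858511 had 35.6 and 32.5 CPM in DMSO and 29.1 and 31.7 at 2 h (log2 change -0.17, edgeR adjusted p = 0.42). The third, 6:27860789-27861189, had 31.3 and 29.0 CPM in DMSO and 25.8 and 26.2 at 2 h (log2 change -0.22, edgeR adjusted p = 0.34). Both were lower in each 2 h library than in either DMSO library, and neither was past the threshold.

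**Figure D3:**
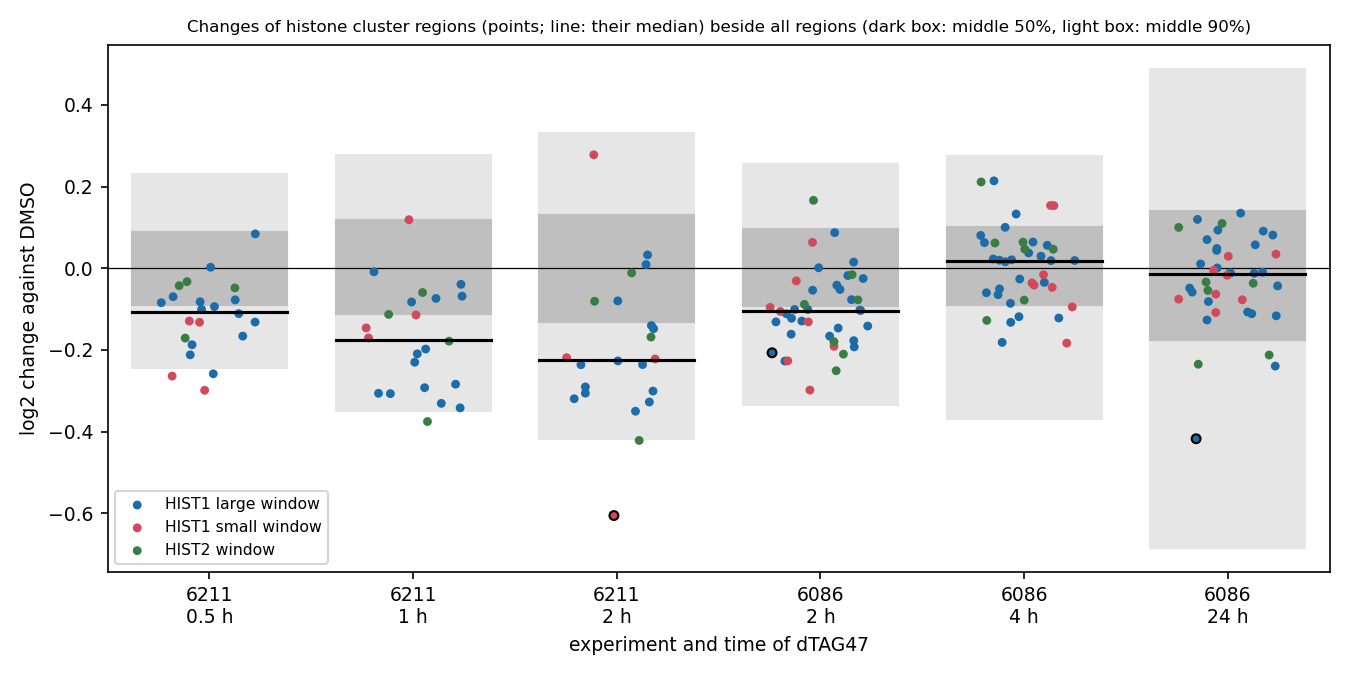
Log2 change against DMSO of every member (points, coloured by window) in the 6 comparisons; the black line is the members' median, the dark and light boxes hold the middle 50% and 90% of all regions, and a black rim marks a called member. The members' median lies at -0.22 at 2 h in 6211 and at -0.01 at 24 h, where the boxes are widest.

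The 2 h effect could be set side by side, since the experiments share no library. Of the 22 overlapping pairs of members 18 were negative in both experiments, with medians of -0.11 in 6086 and -0.22 in 6211. These pairs hold 21 regions of 6086, since 6:26123152-26124660, called at 2 h there, overlapped 2 regions of 6211. For overlap of any length no share over all regions was taken. Among the 13 members matched by 50% reciprocal overlap 10 were negative in both, against 31.3% of all 29639 matched regions. The test of the difference between the effects called 0 of the 13 members and 0.0% of matched regions (edgeR, with 1 member and 1544 matched regions at an unadjusted p under 0.05).

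The spread of the DMSO libraries and the change of the stretch between the HIST1 windows stand beside this 2 h shift. The members' median deviation from the DMSO mean was 0.10 in DMSO library A and -0.10 in library B of 6211, against -0.13 and -0.07 at 0.5 h, -0.04 and -0.29 at 1 h and -0.17 and -0.23 at 2 h. At 0.5 and 1 h a treated library therefore lay above DMSO library B, and at 2 h both lay below it. In 6086 the values were 0.05 and -0.05 in DMSO, -0.11 and -0.11 at 2 h, 0.01 and -0.01 at 4 h and -0.02 and -0.03 at 24 h. The stretch of chromosome 6 between the HIST1 windows, with 46 regions in 6086 and 29 in 6211, moved in the same libraries. Genes of this stretch were not listed here. It may hold histone genes of the HIST1 cluster itself, so it is no histone-free neighbourhood. Its medians were 0.07 and -0.07 in DMSO of 6211 and -0.17 and -0.14 at 2 h, and 0.05 and -0.05 in DMSO of 6086 and -0.08 and -0.10 at 2 h. Its changes at 2 h were negative for 86.2% of regions in 6211 and 73.9% in 6086, against 86.4% and 87.5% of members. Over all regions the libraries' medians lay between -0.00 and 0.01. The part of this stretch and of DMSO library A in the members' shift was not tested. In 6211, when DMSO library A was left out, the members' median was -0.01 for 0.5 h and -0.11 for both 1 h and 2 h.

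**Figure D4:**
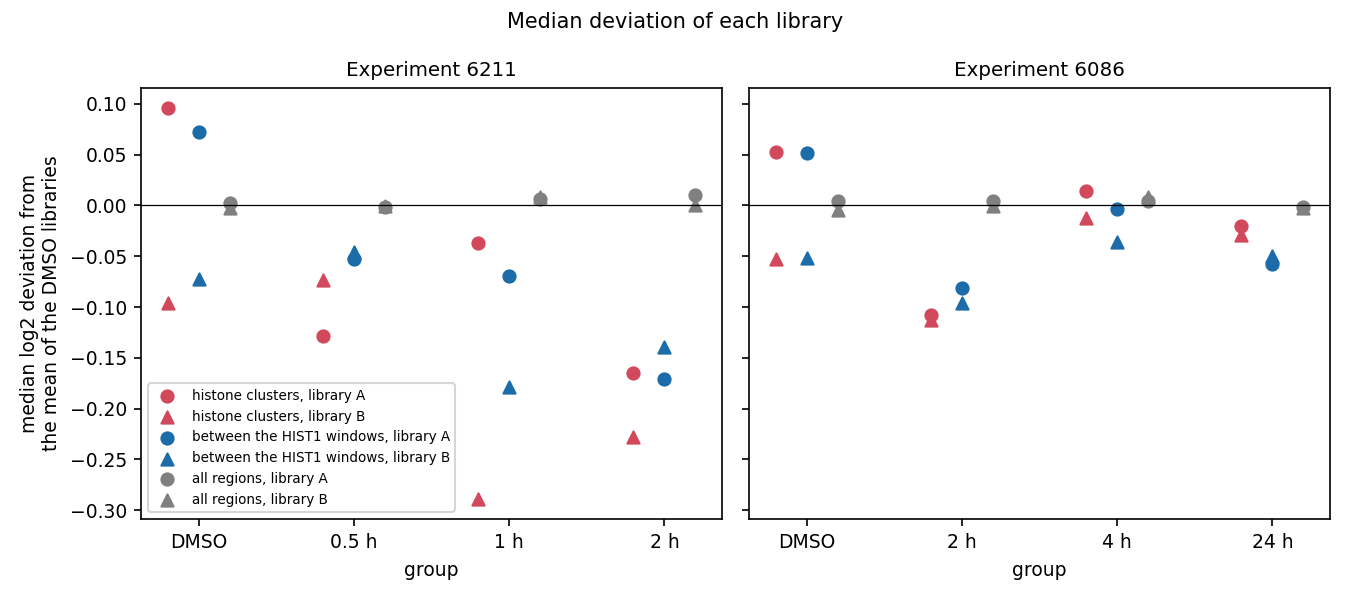
Median log2 deviation from the DMSO mean in each library (circles A, triangles B) for the members, for the regions between the HIST1 windows and for all regions. Members of DMSO library A of 6211 sit at 0.10 and those of library B at -0.10, and in both experiments the members of both 2 h libraries sit lower than those of either DMSO library.

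Regions between the HIST1 windows were called at 24 h in 5 of 46 cases, all lower (10.9% against 32.2% of all regions), and at 2 h in 6211 in 1 of 29, lower (3.45% against 6.89%). Other histone loci were the HIST3 cluster, which lies outside the rule's windows, and the variant histone loci H2AFX, H2AFZ, H3F3A and H3F3B. They held 8 regions in 6086 and 7 in 6211, with none at HIST3 in 6211 and none around HIST4H4 in either table. Against DMSO, calls among them came at 24 h alone, in 2 of 8 regions (25% against 32.2% of all regions). The HIST3 region 1:228639839-228640160 fell from 8.003 ± 0.465 to 5.35 ± 0.818 CPM (SD, n = 2; log2 change -0.59, edgeR adjusted p = 0.00025). In the window around H3F3B, which encodes the replication-independent variant H3.3, 17:73768798-73769897 rose from 50.9 ± 2.53 to 57.3 ± 1.78 CPM (log2 change 0.17, edgeR adjusted p = 0.015). The other region of that window, at 65.4 CPM in DMSO, changed by 0.05 and was not called. Windows around genes that act on replication-dependent histones (NPAT, CASP8AP2, SLBP and LSM11) held 7 regions in 6086 and 5 in 6211, and 1 of the 7 was called against DMSO, at 24 h (14.3% against 32.2% of all regions). In the window around CASP8AP2, whose product FLASH serves histone pre-mRNA processing, 6:90552948-90553068 rose at 24 h from 3.41 ± 0.152 to 4.60 ± 0.00656 CPM (log2 change 0.42, edgeR adjusted p = 0.044). It was the lowest of 3 regions there in DMSO, where the highest had 55.9 CPM. The others changed by -0.07 and 0.04 and were not called. The NPAT region, at 56.4 CPM in DMSO, changed by 0.07 at 24 h (edgeR adjusted p = 0.42), and neither SLBP region was called.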

How the data were processed

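The authors' 2 deposited count tables give, for each region and library, the raw count of reads. Per the file headers, the authors' 6 comparison tables give a log2 fold change and p-values in DESeq2's layout. Tools listed in the submitters' processing notes, without roles, are Bowtie2, DESeq2, DiffBind, Genrich 0.6.1, Trimmomatic 0.32 and deepTools, and the builds listed there are dm3 and hg19. Coordinates are taken as hg19. Shifting of reads for the transposase, duplicate removal and peak merging are not given in the sources used here, and the scales of the authors' normalised values were not used.

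The count test was edgeR 4.0.16 under R 4.3.3 (filterByExpr, TMM, quasi-likelihood fit over all 8 libraries of an experiment), with Benjamini-Hochberg adjustment over all regions and calls at 0.05. The filter left 56945 regions in 6086 and 40844 in 6211. The standard error is the log2 change divided by the square root of F, and 95% intervals use the fit's degrees of freedom. The scripts were tested on simulated data. Between libraries of a group the biological coefficient of variation came to 3.48% (6086) and 5.96% (6211). A change of the same size in all regions would not be seen after TMM scaling. Nothing in the labels says that replicates were separate cultures. The p-values therefore reflect the spread among these libraries alone, possibly a technical one. Column letters could not be linked to the labels' replicate numbers, and 0 columns lay outside the groups. Matching of regions between tables used bedtools 2.31.1.

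The members and the lists were chosen with earlier results of these data known. Windows of other loci were placed from general knowledge of hg19. Regions named were every member called against DMSO, the 3 highest in DMSO CPM of each table, and the lowest and highest 24 h change of each window. The region called at 24 h against 2 h was among the 3 highest. The motifs and the 5 promoters shown were also chosen by hand. Alternatives were DESeq2 1.42.0, library size only, median-ratio size factors, no filter, only the groups compared, the library letter as a block, other window edges and leaving out each library.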

Additional observations from a re-analysis of the deposited data

How the results depend on the processing

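The counts of called members are small and turned on the tool and on single libraries. DESeq2 gave 0 members at 2 h in 6211, 0 at 2 h in 6086, 0 at 24 h and 0 between 2 and 24 h, in place of 1 each. A fit of just the 2 groups compared gave 0 at 2 h in 6086, 0 at 24 h and 1 between 0.5 and 2 h in place of 0. Library size only changed the count between 2 and 24 h. Windows widened by 20 kb, with 47 regions in 6086 in place of 40, gave 3 there, where 30.4% of all regions were called. Leaving out 1 library in turn changed the count at 1 h, at 2 h in both experiments, at 24 h and between 2 and 24 h. The shares of all regions called in those fits are not given here, so the counts are left out. The count did not change at 0.5 h, at 4 h, between 0.5 and 2 h or for the difference between experiments. The library letters do not pair the samples by the labels, and deviations of same-lettered libraries had correlations of -0.15 to 0.16 in 6086 and -0.05 to 0.21 in 6211. With the letter as a replicate block the count changed at 2 h in 6211, and no other count of members did. The share of all regions called in that fit is not given here either. Of 520 values of named members under alternatives 500 kept their side of the threshold, 14 lost it, 6 gained it and 0 called ones reversed, while 29 uncalled values changed sign. Of 96 medians 86 moved by less than the spread between libraries. The cause of these changes was not tested. Precision was lower in 6211, which has fewer reads and a larger spread between libraries. Intervals lay within 1.2-fold for 0, 1 and 0 of 22 members there at 0.5, 1 and 2 h. In 6086 they did for 12, 16 and 20 of 40 at 2, 4 and 24 h. Over all regions the shares were 17.8%, 15.5% and 11.9% in 6211 and 32.6%, 32.4% and 25.2% in 6086. These counts depend on the size of the change as well as on precision. What reads, spread and the members' shift each contribute was not tested.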
